A study of Mus musculus with 8 samples.

Results

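The microRNAs (miRNAs) miR-21, miR-31, miR-221 and miR-222 are described here in mouse microvascular smooth muscle cells, as every spot of the array that carries the name mmu-miR-21, mmu-miR-31, mmu-miR-221 or mmu-miR-222 in any mature form. The rule gave 6 mature forms among 650 miRNAs on the array: the 4 main strands and the 2 star strands miR-21* and miR-31*, the less abundant partners cut from the same hairpins. They were read by 14 probes and 120 spots on each of 8 arrays. The names chose the forms and no measured value did.

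RapCA cells, 4 cultures, were transduced with a shuttle vector carrying RapCA. Control cells, 4 cultures, were transduced with the same vector left empty. All 8 came from male C57BL6 mice of a Rap1a knockout model (Rap1a -/-), so the Control cells carry the knockout too. Rap1a is a Ras-like small GTPase. Growth was in 10% serum, transduction was overnight in serum-free medium, and a recovery of 48 h in 0.5% serum preceded RNA extraction. The series title calls the comparison knockout against rescue. What RapCA encodes, the animals' age, the number of animals behind the cultures and the virus used are not given in the sources used here. The 4 cultures of a group are labelled biological replicates with nothing on how they were separated, so p-values measure the spread between these samples, which may be technical.

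A miRNA is cut from a hairpin transcript and guides a silencing complex to messages that pair with its seed, bases 2 to 8 of the mature strand. In vessels, miR-21 and the miR-221 and miR-222 pair are known to rise after balloon injury of rat arteries, and to favour growth of smooth muscle cells, the pair through targets such as the cell cycle inhibitor p27. miR-31 is another miRNA linked to smooth muscle growth, with Lats2 as a target described in rat.

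The mature sequences below, 5′ to 3′ with the seed in capitals, show which of the measured strands could act on shared targets. All 6 forms matched an entry of RefSeq's miRNA table (build GRCm38.p6) through their current names.
miR-21 (miR-21a-5p): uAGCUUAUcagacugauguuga
miR-21* (miR-21a-3p): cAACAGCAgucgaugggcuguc
miR-31 (miR-31-5p): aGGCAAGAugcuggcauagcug
miR-31* (miR-31-3p): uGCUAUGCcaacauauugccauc
miR-221 (miR-221-3p): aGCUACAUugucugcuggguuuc
miR-222 (miR-222-3p): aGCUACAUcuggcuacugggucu

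miR-221 and miR-222 carry the same seed, GCUACAU, and are identical at 11 of 23 positions counted from the 5′ end, with the first difference at position 9. Each of the other forms has a seed of its own among the 6. In GRCm38.p6 the Mir221 hairpin lies at chrX:19146294-19146388 and the Mir222 hairpin at chrX:19146893-19146971, both on the minus strand, 504 bases apart and inside no RefSeq gene; the pair is known to come from a common primary transcript. Mir21a lies at chr11:86584067-86584158, minus strand, within the span of Vmp1. Mir31 lies at chr4:88910557-88910662, minus strand, within that of the long noncoding RNA gene Gm49890. Its hairpin is printed because both of its arms gave signal, with miR-31 and then miR-31* in capitals.
Mir31 hairpin: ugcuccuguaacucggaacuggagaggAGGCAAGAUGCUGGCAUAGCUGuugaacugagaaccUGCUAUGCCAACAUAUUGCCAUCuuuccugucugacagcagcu
Near copies of miR-21 exist in the table, and the array has no probe named for them: miR-21b, identical to miR-21 at 18 of 22 positions, and miR-21c, identical at 16 of 21. Whether they add to the miR-21 signal was not tested.

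The arrays of the groups differed in brightness before any scaling. The summed signal of spots that were not controls was 496309 ± 216470.3 on RapCA arrays and 1013419 ± 152915 on Control arrays (SD, n = 4 each), a ratio of 0.490 (two-sided exact permutation p = 0.0286, the smallest the design allows, and 0.0857 adjusted over 3 array measures). RapCA replicate 1 was nearly as bright as the dimmest Control array, at 818600; its RapCA companions ran from 353239.7 to 416129 and the Control arrays from 866723 to 1209069. Control spots with names starting in dmr_ were taken as spike-in RNAs, and the 4 bright ones of 6 were used. The sources used here do not say at which step they were added. These 4 spike-in RNAs had geometric means of 1255 ± 129 on RapCA and 1254 ± 108 on Control arrays (SD, n = 4 each; exact permutation p = 1). Among marker miRNAs, smooth muscle's miR-143 was detected on 8 arrays and its partner miR-145 on 0 RapCA and 4 Control arrays. The endothelial (0 of 2), blood (0 of 5) and epithelial (0 of 5) markers were detected on no array, and of 4 striated muscle markers only miR-206 was, on all 8.

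Levels below are log2 of the signal after scaling each array to the same 75th percentile, taken from the 189 probes seen on every array, with a floor at 3.26. A difference is RapCA minus Control on that log2 scale, and a call is an adjusted p under 0.05 by limma over the 168 tested miRNAs. Of the 5 forms that could be tested, miR-222, miR-31 and miR-31* were raised in RapCA cells and miR-21 and miR-221 were not called. Among all 168, 76.2% were called: 26.2% raised and 50% lowered, so calls were common on these arrays and none of the 5 forms was among the lowered. The median difference of all 168 miRNAs was -0.30, and 5 of 5 forms lay above it, by 0.27 for miR-21 and by 1.30 for miR-222. The split of 44 raised and 84 lowered moves with the scaling: it was 10 and 113 on unscaled arrays (median -1.03), 9 and 111 with the spike-ins as scale (median -1.07), 28 and 103 when every probe set the percentile (median -0.61). With normexp background correction of the median signals in place of the processed signal it was 76 and 20 with an offset of 50 (median 0.38) and 53 and 54 without it (median -0.021). Not every form stayed above these medians. Under normexp with the offset, miR-21 (-0.20), miR-31 (0.33) and miR-221 (0.29) lay below. miR-21 also lay below on unscaled arrays (-1.1003), on spike-in scaled arrays (-1.099) and under normexp without the offset (-0.059). With bulk RNA, fewer cells with a miRNA and less of it per cell cannot be told apart.

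**Figure D1:**
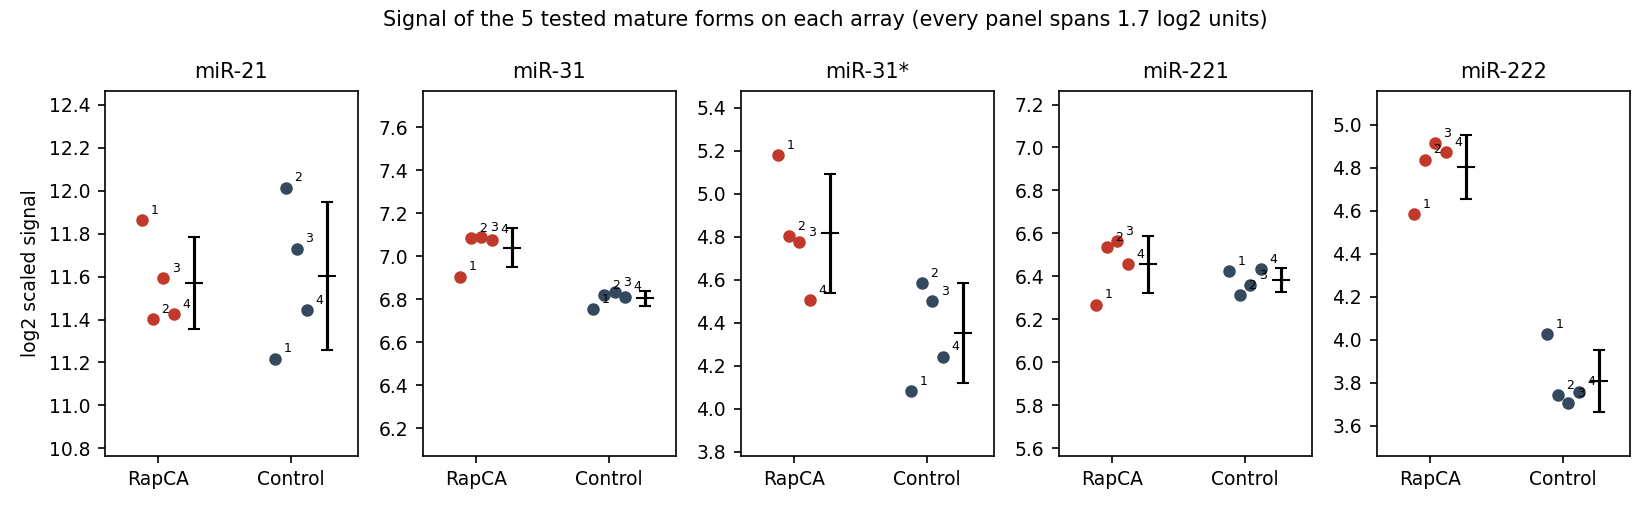
Log2 scaled signal (vertical axis) of the 5 tested forms on each array, with RapCA left of Control; points are arrays numbered by replicate and bars are mean ± SD (n = 4). For miR-222 and miR-31 every RapCA point lies above every Control point, and for miR-21, miR-31* and miR-221 the groups overlap.

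miR-222 had the largest difference of the 5. Its level was 4.58, 4.84, 4.91 and 4.87 on RapCA arrays 1 to 4, against 4.02, 3.74, 3.70 and 3.76 on Control arrays 1 to 4. All 4 RapCA values lay above all 4 Control values; among all tested miRNAs 67.9% were separated, 21.4% with RapCA higher and 46.4% with RapCA lower. The means were 4.80 ± 0.15 in RapCA and 3.81 ± 0.15 in Control cells (SD, n = 4 each), a difference of 1.00 ± 0.11 (SE), or 1.99-fold (limma adjusted p = 2.40e-05). Of the 168 tested miRNAs, 12.5% had a higher difference. The 168 include miRNAs named for mouse viruses, which were called raised as well. mghv-miR-M1-2 went from 3.59 in Control to 4.72 in RapCA cells, a difference of 1.13. The differences were 0.79 for mcmv-miR-m88-1 and 0.56 for mcmv-miR-M23-1-5p. What these probes read was not tested. For miR-222, RapCA replicate 1, the array close to the Controls in brightness, gave 4.58, still above the highest Control value of 4.02.

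Both miR-222 probes moved alike. The brighter probe had 5.18 ± 0.18 on RapCA and 4.14 ± 0.16 on Control arrays, and the dimmer probe 4.42 ± 0.13 and 3.48 ± 0.14 (SD, n = 4 each). Their differences were 1.05 ± 0.12 and 0.94 ± 0.11 (SE; limma adjusted p = 2.15e-05 and 1.89e-05 over 292 probes, of which 26.7% were raised and 51% lowered). miR-222 was the dimmest of the 4 main strands, and 66 of 80 spots on RapCA arrays and 72 of 77 on Control arrays were well above background. The dimmer probe was detected on 3 RapCA and 4 Control arrays, and its Control levels of 3.35 to 3.67 lie close to the floor.

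Before scaling, the scanner software's total gene signal for miR-222, its sum over the probes of a miRNA, was 45.1, 21.1, 24.2 and 22.9 on RapCA arrays and 31.8, 27.3, 29.8 and 20.9 on Control arrays. These unscaled values overlap, with means of 28.3 ± 11.2 and 27.5 ± 4.7 (SD, n = 4 each). As a share of the array's total over all miRNAs, miR-222 made up 0.0796%, 0.0798%, 0.0830% and 0.0807% on RapCA arrays, against 0.0494%, 0.0371%, 0.0364% and 0.0351% on Control arrays. The rise of miR-222 is therefore relative to the other miRNAs on the same array: on unscaled arrays the difference was -0.0066 and on arrays scaled to the spike-ins -0.0017, neither called (limma adjusted p = 0.980 and 0.996).

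miR-221, the partner of miR-222 with the same seed, was not called. Its level was 6.27, 6.54, 6.56 and 6.46 on RapCA arrays, against 6.42, 6.31, 6.36 and 6.43 on Control arrays. The groups overlap, and RapCA replicate 1 was the lowest of the 8. The means were 6.46 ± 0.13 in RapCA and 6.38 ± 0.06 in Control cells (SD, n = 4 each), a difference of 0.073 ± 0.092 (SE) with a 95% interval of -0.13 to 0.28 (limma adjusted p = 0.483). Its brighter and dimmer probes gave 0.066 and 0.081, and 79 of 79 and 80 of 80 spots were well above background on RapCA and Control arrays. As a share of total gene signal miR-221 lay between 0.243% and 0.260% on RapCA arrays and between 0.229% and 0.264% on Control arrays. The direction for miR-221 turned with the scaling: it was called lowered when every probe set the percentile (-0.34), when arrays were left unscaled (-0.996) and when spike-ins set the scale (-0.995), and called raised after quantile normalization (0.21) or cyclic loess (0.26).

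In a difference between 2 miRNAs on the same array the factor that scales the array cancels, except where the floor, set on the scaled signal, touches a dim miRNA such as miR-222. miR-222 minus miR-221 was -1.68, -1.70, -1.65 and -1.58 on RapCA arrays, against -2.40, -2.57, -2.65 and -2.68 on Control arrays. All RapCA values lay above all Control values, and the groups lay 0.92 apart, with SDs of 0.05 in RapCA and 0.13 in Control cells. The two-sided exact permutation p was 0.0286, the smallest possible with 4 against 4, and 0.0571 after adjustment over the 6 pairs of main strands, so this difference did not pass. It was 0.99 on unscaled and on spike-in scaled arrays, 0.47 after cyclic loess and 0.57 under normexp with the offset of 50. The levels of 2 probes on an array do not compare their copy numbers, and only the shift between groups is read here.

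**Figure D2:**
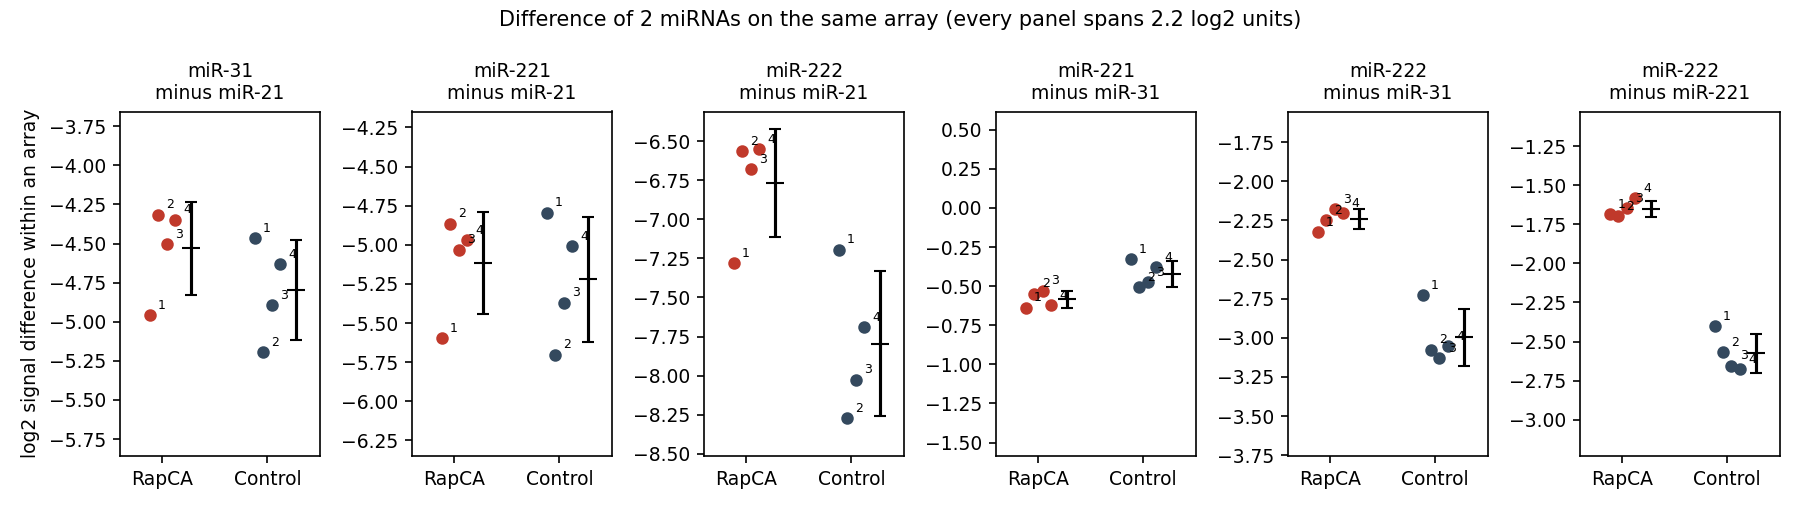
Log2 signal difference of 2 miRNAs on the same array (vertical axis) for the 6 pairs of main strands, with RapCA left of Control; points are arrays numbered by replicate and bars are mean ± SD (n = 4). The groups do not overlap for miR-222 minus miR-221, miR-222 minus miR-31 and miR-221 minus miR-31, and overlap for the 3 pairs with miR-21.

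The other pairs gave smaller or less even shifts. miR-222 minus miR-31 was 0.76 higher on RapCA arrays, with groups that did not overlap (exact permutation p = 0.0286, adjusted 0.0571). miR-221 minus miR-31 ran from -0.64 to -0.53 on RapCA and from -0.51 to -0.33 on Control arrays, a shift of -0.16 with no overlap (exact permutation p = 0.0286, adjusted 0.0571). miR-222 minus miR-21 shifted by 1.03 but overlapped (exact permutation p = 0.0571, adjusted 0.0857). miR-31 minus miR-21 shifted by 0.27 and miR-221 minus miR-21 by 0.10, with adjusted exact permutation p-values of 0.309 and 0.743. Thus 3 of 6 pairs were separated and 0 passed after adjustment, where with 4 arrays against 4 none can pass unless at least 4 pairs reach the smallest p. The share of separated pairs among all pairs of tested miRNAs was not computed. Of single miRNAs 67.9% were separated, so the 3 of 6 is not read as particular to these strands. Without Control replicate 1, 4 pairs passed, each at an adjusted p of 0.0429: miR-222 minus miR-221 (0.95), minus miR-31 (0.82) and minus miR-21 (1.20), and miR-221 minus miR-31 (-0.13).

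miR-31 was raised by a small amount. Its level was 6.91, 7.09, 7.09 and 7.08 on RapCA arrays, against 6.75, 6.82, 6.83 and 6.81 on Control arrays. Every RapCA value exceeded every Control value, and the lowest RapCA value came from replicate 1. The mean levels were 7.04 ± 0.09 and 6.80 ± 0.04 (SD, n = 4 each), which is 1.18-fold (difference 0.24 ± 0.08, SE; limma adjusted p = 0.0241). Both probes moved the same way, with 0.25 ± 0.09 for the brighter and 0.22 ± 0.09 for the dimmer (SE; limma adjusted p = 0.0295 and 0.0382 over all probes). As a share of total gene signal, miR-31 ran from 0.383% to 0.416% on RapCA and from 0.314% to 0.338% on Control arrays. The call was lost without RapCA replicate 3 (0.22, limma adjusted p = 0.0816), with brightness as a covariate (0.097), and with the replicate number as a block (0.24, limma adjusted p = 0.0828). Each replicate number sits in the same slide row in both groups, so that block is the slide row as well. Summed signal was lower on every RapCA array than on every Control array, so a brightness covariate cannot be cleanly parted from the group. On unscaled arrays, and likewise on arrays scaled to the spike-ins, miR-31 was called lowered (-0.83 in each); when every probe set the percentile it was -0.17 and not called.

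The other arm of the same hairpin, miR-31*, lay in the same direction with a wider spread. Its level was 5.18, 4.80, 4.78 and 4.51 on RapCA arrays, against 4.08, 4.58, 4.50 and 4.24 on Control arrays. The groups overlap, since RapCA replicate 4 fell below Control replicate 2. The means were 4.82 ± 0.28 and 4.35 ± 0.23 (SD, n = 4 each), a difference of 0.46 ± 0.16 (SE; limma adjusted p = 0.0240). Leaving out RapCA replicate 1 gave 0.34 (limma adjusted p = 0.0452), and the call was lost without Control replicate 1 (0.39) or 4 (0.44). On unscaled and on spike-in scaled arrays the value was -0.48 (not called in either). Its dimmer probe was detected on 1 RapCA and 4 Control arrays, and 53 of 78 spots on RapCA and 74 of 76 on Control arrays were well above background.

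The level of miR-31* against miR-31 on the same array was -1.73, -2.28, -2.32 and -2.57 on RapCA arrays and -2.67, -2.23, -2.33 and -2.57 on Control arrays. The highest value was that of RapCA replicate 1, and the rest of the RapCA arrays lay within the Control range. The mean shift was 0.23, described here without a test.

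**Figure D3:**
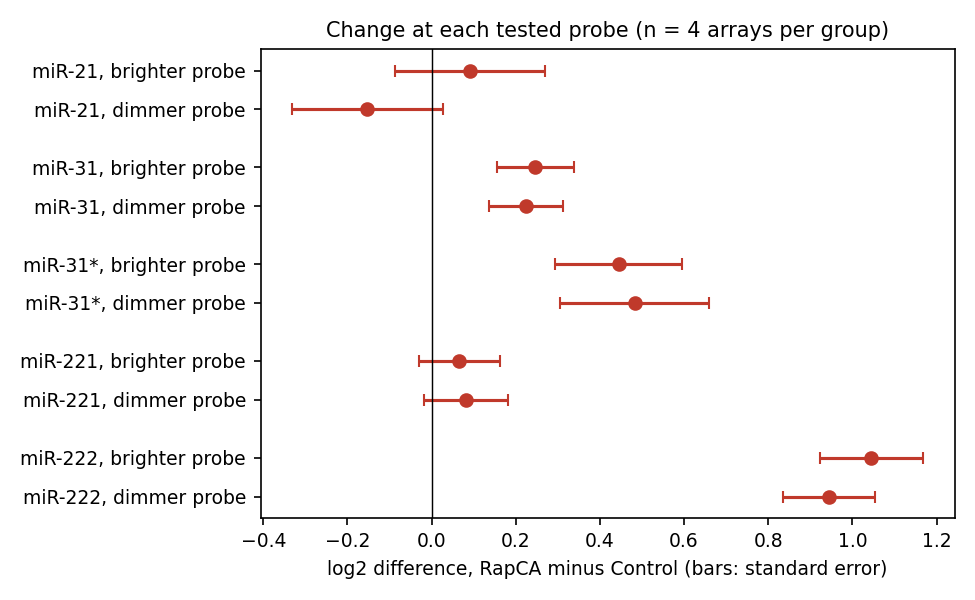
Log2 difference, RapCA minus Control (horizontal axis), at each of the 10 tested probes; points are limma estimates and bars are standard errors (n = 4 arrays per group). Probes of the same form lie together except for miR-21, whose probes fall on either side of 0, at 0.090 and -0.15.

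miR-21 gave by far the most signal of the 4 main strands and did not differ between the groups beyond their spread. Its level was 11.86, 11.40, 11.59 and 11.43 on RapCA arrays, against 11.22, 12.01, 11.73 and 11.44 on Control arrays. The lowest and the highest of the 8 values were both from Control arrays. The means were 11.57 ± 0.21 in RapCA and 11.60 ± 0.35 in Control cells (SD, n = 4 each), a difference of -0.031 ± 0.18 (SE) with a 95% interval of -0.43 to 0.36 (limma adjusted p = 0.863), which holds shifts of either sign. The widest spread among the tested forms was that of miR-21 in Control cells (SD 0.35, against 0.036 for miR-31). Between replicate spots of 1 probe on 1 array the SD for miR-21 was at most 0.13, smaller than the SD between arrays of either group.

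The miR-21 values followed array brightness in part. Among RapCA arrays the order of miR-21 levels was that of summed signal, with replicate 1 the highest in both. Among Control arrays the 2 brightest had the 2 highest levels, but replicate 2 lay above the brighter replicate 3, and the dimmest, replicate 4, lay above replicate 1. With brightness as a covariate, which cannot be cleanly parted from the group, the difference was 0.48 (limma adjusted p = 0.106). Total gene signal for miR-21 made up 15.3%, 9.003%, 10.4% and 9.60% of the array's total on RapCA arrays and 8.27%, 13.7%, 11.7% and 8.96% on Control arrays. No other test of brightness was run on them.

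The probes of miR-21 differed in direction. The brighter had 12.64 ± 0.20 on RapCA and 12.55 ± 0.37 on Control arrays and the dimmer 10.50 ± 0.23 and 10.65 ± 0.35 (SD, n = 4 each), and neither difference was called (0.090 ± 0.18 and -0.15 ± 0.18, SE; limma adjusted p = 0.640 and 0.443). Brighter minus dimmer on the same array ran from 2.08 to 2.26 on RapCA arrays and from 1.71 to 2.05 on Control arrays. Its mean differed between the groups by 0.24, and the same contrast between probes differed by 0.10 for miR-222, -0.038 for miR-31*, 0.022 for miR-31 and -0.016 for miR-221. Probe sequences were not used here, and why the 2 probes of miR-21 part was not tested.

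The star strand miR-21* was near the limit of the arrays and entered no test. It had 4 probes, of which 2 were detected on no array, 1 on 1 RapCA array and 1 on 1 RapCA and 2 Control arrays. In all, 11 of 78 spots on RapCA arrays and 14 of 78 on Control arrays were well above background. Its total gene signal, where the scanner software called it present (3 RapCA and 4 Control arrays), was from 2.78 to 11.7, against 2375 to 10064 for miR-21.

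**Figure D4:**
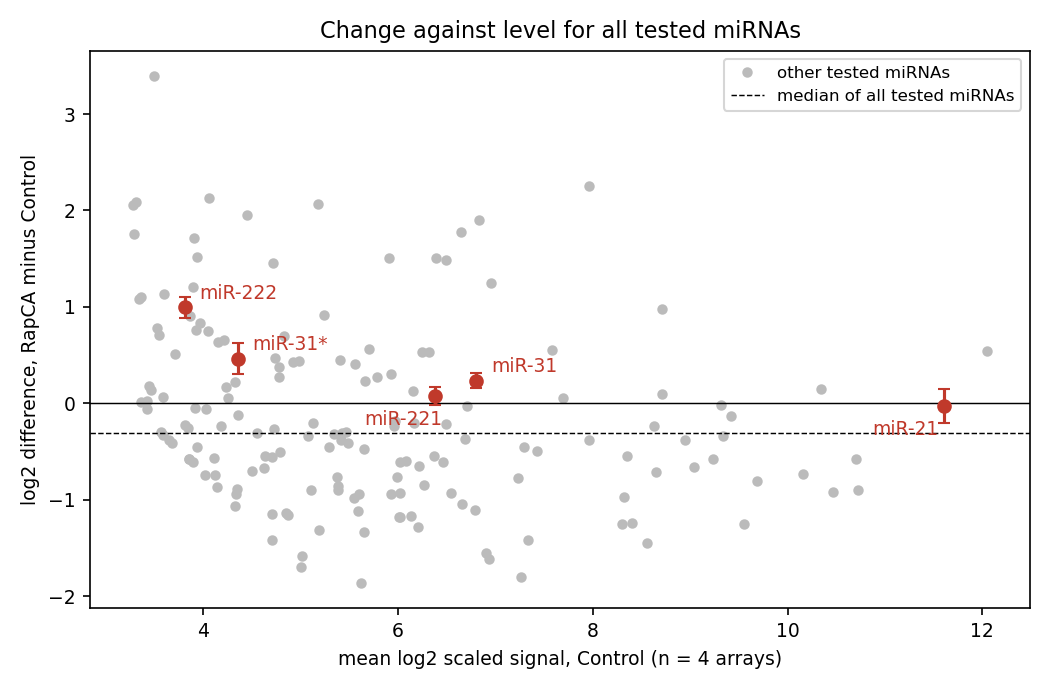
Log2 difference, RapCA minus Control (vertical axis), against the mean log2 scaled signal in Control cells (horizontal axis) for the 168 tested miRNAs; red points are the 5 tested forms with standard errors, and the dashed line is the median of all, -0.30. miR-222 sits among the dim miRNAs at 1.00, miR-31 and miR-221 near the middle of the range and miR-21 at the bright end at -0.031.

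By signal, miR-21 ranked second of the 168 tested miRNAs in both groups. Above it was the entry that the array names miR-720, with 12.59 ± 0.55 in RapCA and 12.05 ± 0.23 in Control cells (SD, n = 4 each). What its probes read was not tested. The gap to miR-720 was 1.02 in RapCA and 0.45 in Control cells, against SDs of miR-21 of 0.21 and 0.35. miR-31 ranked 36 in RapCA and 38 in Control cells, and miR-221 ranked 43 and 49. For both, the next miRNA below (miR-125a-5p and miR-10a in RapCA, miR-27b and miR-210 in Control cells) lay at most 0.11 lower. miR-222 ranked 103 in RapCA and 148 in Control cells. In RapCA cells its neighbours were miR-31* and miR-712, and in Control cells miR-425 and miR-1198, the farthest of them 0.095 away. Neighbours this close do not differ beyond their spread, and ranks of signal depend on how each probe binds, so they are no order of copy number.

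The miRNAs most like each main strand over the 8 arrays were named by Pearson correlation of scaled levels, with 3 per strand. miR-222 was closest to miR-92a (r = 0.992), miR-155 (0.987) and miR-714 (0.984), all raised in RapCA cells. For miR-31 they were miR-1895 (0.967), miR-467f (0.967) and miR-689 (0.964), again all raised. miR-221 was closest to miR-125b-5p (0.934), miR-296-5p (0.891) and miR-720 (0.884), and miR-21 to miR-218 (0.937), miR-872 (0.923) and miR-96 (0.8997), and none of these 6 was called. The names are those of the array, and what the probes of miR-720, miR-714 and miR-689 read was not tested. The arrays share a slide and differ in brightness, so these values describe likeness only. The levels kept the difference between the groups, so a strand with separated groups tends to be matched with miRNAs that shift alike. Whether the matched miRNAs were called therefore follows in part from how they were chosen. Among the strands themselves, again with the group difference kept, miR-222 correlated with miR-31 at 0.910 and with miR-221 at 0.545.

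**Figure D5:**
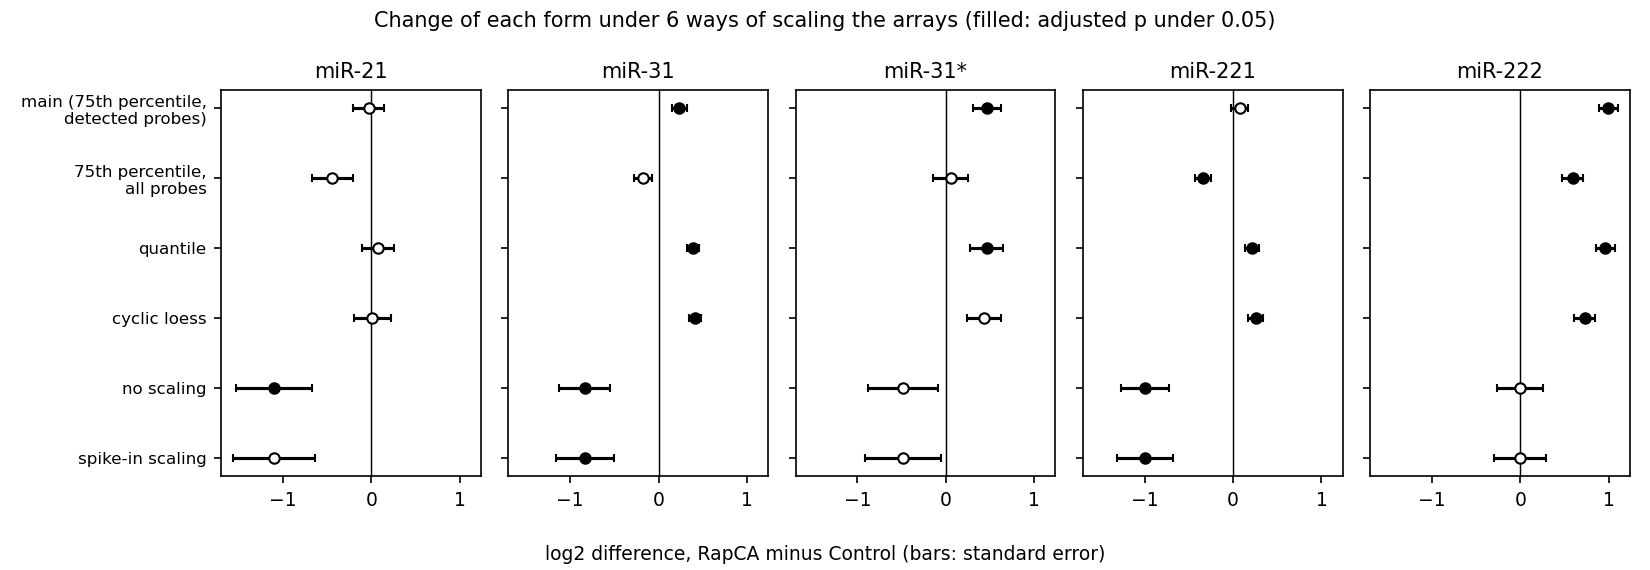
Log2 difference, RapCA minus Control (horizontal axis), of the 5 tested forms under 6 ways of scaling the arrays (rows); filled points have a limma adjusted p under 0.05, and bars are standard errors (n = 4 arrays per group). miR-222 is called raised under 4 of the 6 and lies near 0 on unscaled and on spike-in scaled arrays, where miR-31 and miR-221 are called lowered.

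With the scaling used here for levels, other miRNAs linked to vessel injury or to the state of smooth muscle were more often lowered than raised, as were all tested miRNAs. The list was not recounted under the other settings, with which the split of all tested miRNAs moved as given above. Of 24 listed, 22 were on the array and 14 were tested: 10 were lowered in RapCA cells, 3 were raised and 1 was not called, with a median difference of -0.64 against -0.30 for all tested miRNAs, of which 50% were lowered and 26.2% raised. No test was run on the list, which was chosen with earlier results of these data known. Its brightest tested members were miR-125b-5p, with 10.49 ± 0.23 in RapCA and 10.34 ± 0.17 in Control cells (SD, n = 4 each; not called, limma adjusted p = 0.318), and miR-24, with 8.87 ± 0.11 in RapCA and 9.68 ± 0.091 in Control cells (SD, n = 4 each; difference -0.81 ± 0.091, SE; limma adjusted p = 2.71e-05). miR-155, an inflammatory miRNA that also restrains contractile genes, was raised by 1.52 ± 0.12 (SE; limma adjusted p = 2.82e-06). The 10 lowered members include miR-143 and miR-145, the contractile pair. miR-145 was detected on no RapCA array and entered the test through the Control arrays alone. Its mean was 3.27 in RapCA cells, at the floor of 3.26, and 4.02 in Control cells. The size of its difference therefore depends on the floor. None of the 6 forms is among the 54 miRNAs in the authors' deposited table.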

How the data were processed

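Total RNA of 8 cultures was labelled with Cy3 and hybridised to Agilent mouse miRNA arrays, 1 sample each, per the labels' protocols. The deposited scanner files hold spot intensity read by the authors with Agilent Feature Extraction 10.7.3.1, per the file headers (10.7 in the submitters' processing notes), with background subtracted and no scaling between arrays. The deposited value table equals this processed signal intensity exactly (largest difference 0). Other deposited columns used were flags, median signals and the total gene signal. The design annotation is mm9, per the file headers, and printed coordinates are RefSeq's in GRCm38.p6.

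Control spots and spots with an outlier flag (2.98% to 4.66% per array) were left out. A probe counted as detected where over 0.5 of its spots were well above background. Signal was scaled to the 75th percentile over 189 probes, floored at 9.61 (percentile 1 of spots above background), logged (log2) and averaged per probe and miRNA over probes detected on all arrays of a group. The test was limma 3.58.1 under R 4.3.3 (two-sided, Benjamini-Hochberg, threshold 0.05). Single values were compared by exact permutation over 70 assignments. No member spot was saturated (0 spots). The spread over replicate spots of a tested member probe was 0.03 to 0.44 (SD, log2), and the number of arrays limits precision. A first simulation, in which miRNAs changed without regard to level, failed: the scaling itself shifted and unchanged miRNAs were called. The method recovered the changes put in once raised and lowered miRNAs were matched in level, a condition these arrays need not meet.

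The 8 arrays lay on 1 slide, with each group in its own column of array positions, so position and group cannot be told apart. The named miRNAs were the 6 forms, the 3 most like each main strand, the neighbours in rank, and the 2 brightest of a list of vessel miRNAs. miR-155, miR-29b, miR-322, miR-143 and miR-145 of that list, and the miRNAs named for viruses, were named after their values were seen. Members and lists were chosen with earlier results of these data known. Alternatives covered the scaling, background correction, floor, filter, summary, covariate, block and each array left out.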

Additional observations from a re-analysis of the deposited data

Results flagged for a closer look

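In 28 groups of 4 values, 4 values lay far from the other 3 by Dixon's 95% criterion; chance flags about 1 in 20 groups. RapCA replicate 1 gave a pair of them: miR-31 at 6.91, against 7.08 to 7.09 on the other RapCA arrays, and the summed signal at 818600, against 353239.7 to 416129. Control replicate 1 gave the others: miR-222 at 4.02, against 3.70 to 3.76 on the other Control arrays, and a spike-in geometric mean of 1416, against 1193 to 1211. Without Control replicate 1 the miR-222 difference was 1.06, and without RapCA replicate 1 the miR-31 difference was 0.28, both still called raised by limma (adjusted p = 2.38e-05 and 0.00756).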

How the results depend on the processing

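Each result was recomputed under up to 25 alternatives. miR-222 was called raised in 23, with 0.95 to 1.16 when 1 array was left out, 0.59 when every probe set the percentile and 0.70 with brightness as a covariate; on unscaled arrays it was -0.0066 and on spike-in scaled arrays -0.0017. miR-31 was called raised in 19, with 0.22 to 0.42 when 1 array was left out. It was not called with the replicate block (0.24) or the brightness covariate (0.097), and it turned to -0.17 when every probe set the percentile and to -0.83 on unscaled and on spike-in scaled arrays. miR-31* was called raised in 17 (0.34 to 0.67 when 1 array was left out), but not when every probe set the percentile (0.055), nor with cyclic loess (0.43), no filter on dim probes (0.46) or total gene signal (0.45), and it turned to -0.48 on unscaled and on spike-in scaled arrays. Its largest value was 0.99, with brightness as a covariate, and normexp gave 0.73 with and 0.68 without the offset. miR-221 (0.04 to 0.25 when 1 array was left out) was -0.34 when every probe set the percentile, -0.996 unscaled, -0.995 on spike-in scaled arrays and -0.17 with the covariate, and was called raised with quantile normalization (0.21) and cyclic loess (0.26). miR-21 (-0.14 to 0.23 when 1 array was left out) was called in 1 alternative, lowered on unscaled arrays (-1.1003). It lay above 0 with quantile normalization (0.074), cyclic loess (0.012), the brightest probe and median spot (0.074), total gene signal (0.031), the covariate (0.48) and RapCA replicate 1 alone (0.41). Values with the brightness covariate are limited because brightness differed between the groups on every array. The causes of these shifts were not tested.

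Raised miRNAs numbered 44 and lowered ones 84. They were 28 and 103 when every probe set the percentile, 10 and 113 on unscaled arrays, 9 and 111 on spike-in scaled arrays, 50 and 77 with quantile normalization, 46 and 69 with cyclic loess, and 76 and 20 or 53 and 54 under normexp with and without the offset of 50. When 1 array was left out they ran from 39 to 49 raised and from 61 to 85 lowered. Normexp on median signals and the fit with RapCA replicate 1 alone were chosen after seeing the data; normexp on mean signals was not run. Pairs were recomputed under 20 alternatives, some added after seeing the data, and not with the block, the covariate, the trend or total gene signal. The count that passed was 0 in 19, which the size of the design largely sets, and 4 without Control replicate 1 (0 to 4 when 1 array was left out). miR-221 minus miR-21 turned to -0.056 without Control replicate 2. The group difference in log2 summed signal was -1.104, and -1.37 to -0.97 when 1 array was left out, with an exact permutation p of 0.0571 whenever a Control array was the one left out. Deviations of same-numbered cultures correlated at -0.65, -0.60, -0.55 and 0.63, and those of differently numbered ones at -0.75 to 0.75. Unlike numbers correlated as strongly as like ones, so this check cannot tell whether replicate numbers pair the samples. Beside miR-31, the replicate block changed no call of these 5 forms, and it gave 41 raised and 77 lowered miRNAs. Signal over background limits miR-222, miR-31* and miR-21*. Nearest the floor of 3.26 were miR-21* and, on Control arrays, the dimmer probes of miR-222 (3.48 ± 0.14) and miR-31* (3.82 ± 0.24, SD, n = 4 each).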
